A study of Mus musculus with 18 samples.

Results

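Cytosolic ribosomal protein genes were followed through the kidney cortex of lupus-prone mice and of healthy controls. The members were taken by symbol, as every measured gene named Rpl, Rps or Rplp plus a number (with the suffix a, x, y or l allowed) together with Rpsa, and without the Rps6k kinases. This gave 79 of the 15035 genes measured. By symbol, 32 of these were counted to the small subunit, 44 to the large subunit and 3 to the stalk, with its base Rplp0. The 32 include Rpsa and Rps4l, which is annotated as a pseudogene.

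RNA sequencing covered 18 mice in 6 groups of 3. The healthy group consisted of wild type MRL/MpJ animals given vehicle. The remaining 15 mice were MRL/lpr, a strain with defective Fas that develops lymphoproliferation and an immune-mediated nephritis, and all 5 of their groups carry that genotype. They were given vehicle, MMF (mycophenolate mofetil, which blocks guanine nucleotide synthesis), FK506 (tacrolimus, a calcineurin inhibitor), prednisone (a glucocorticoid) or a multi-target treatment. The labels state neither doses, times, ages nor the drugs in the multi-target arm. Healthy sample titles follow another pattern than those of the MRL/lpr mice, and the labels do not say whether the libraries were made together, so genotype and preparation cannot be told apart between them.

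A cytosolic ribosome consists of a small subunit, which reads the messenger RNA, and a large subunit, which joins amino acids. Each subunit holds ribosomal RNA and one copy of most of its proteins, whose genes lie scattered over the chromosomes and are transcribed together. Their messenger RNAs begin with a run of pyrimidines, the TOP motif, through which mTORC1 controls their translation.

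Each library gave between 28939845 and 41066953 reads as recovered from the deposited log2 values, and the lowest member value in any library stood for 88 reads. Markers of tissue next to the cortex stood apart in 2 libraries. Adipocyte markers lay 7.13 log2 units above the healthy mean in vehicle mouse 17, and adrenal cortex markers 5.47 in FK506 mouse 12. The members of those libraries lay on average 0.25 and 0.68 above healthy, and results are given below without them where that changes a call. Proximal tubule markers, which define most of the cortex, were measured in full (15 of 15) and made up 0.779% to 3.21% of the summed values of a library.

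As deposited, the median member was higher in every MRL/lpr library than in healthy kidneys. The median member lay 0.21, 0.25 and 0.62 log2 units above the healthy mean in vehicle mice 7, 17 and 36. It lay 0.34, 0.76 and 0.74 above in MMF mice 1, 14 and 27, and 0.67, 0.70 and 0.24 in FK506 mice 3, 12 and 24. The prednisone mice 23, 29 and 35 stood at 0.43, 0.14 and 0.54, and the multi-target mice 6, 18 and 39 at 0.46, 0.65 and 0.27. The 3 healthy libraries spanned -0.03 to 0.04, so all 15 MRL/lpr libraries lay above all healthy ones, and mice within each MRL/lpr group differed widely. The median over all genes in the same MRL/lpr libraries was 0.02 to 0.15 above healthy. Taken relative to the median gene of its own library, the median member stood at 3.40 to 3.51 in healthy mice, at 3.41 in prednisone mouse 29, inside that range, at 3.53 in vehicle mouse 17 and at 3.56 or more in the other 13.

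Single members were mostly separated from healthy as well. For 64 of 79 members (81.0%) each of the 15 MRL/lpr libraries exceeded the highest healthy one, which held for 13.3% of all genes. When every library was shifted to the same median gene, the counts were 14 members (17.7%) and 7.34% of genes. That shift moves the all-gene median of vehicle minus healthy from 0.09 to -0.10. Prednisone mouse 29 lay closest to healthy. With quantile normalization the count was 65 members, and the share of all genes under that setting is not reported here. The 15 members with overlap included Rpl3, Rpl4, Rplp1, Rps26, Rps4l and Rps27l.

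**Figure D1:**
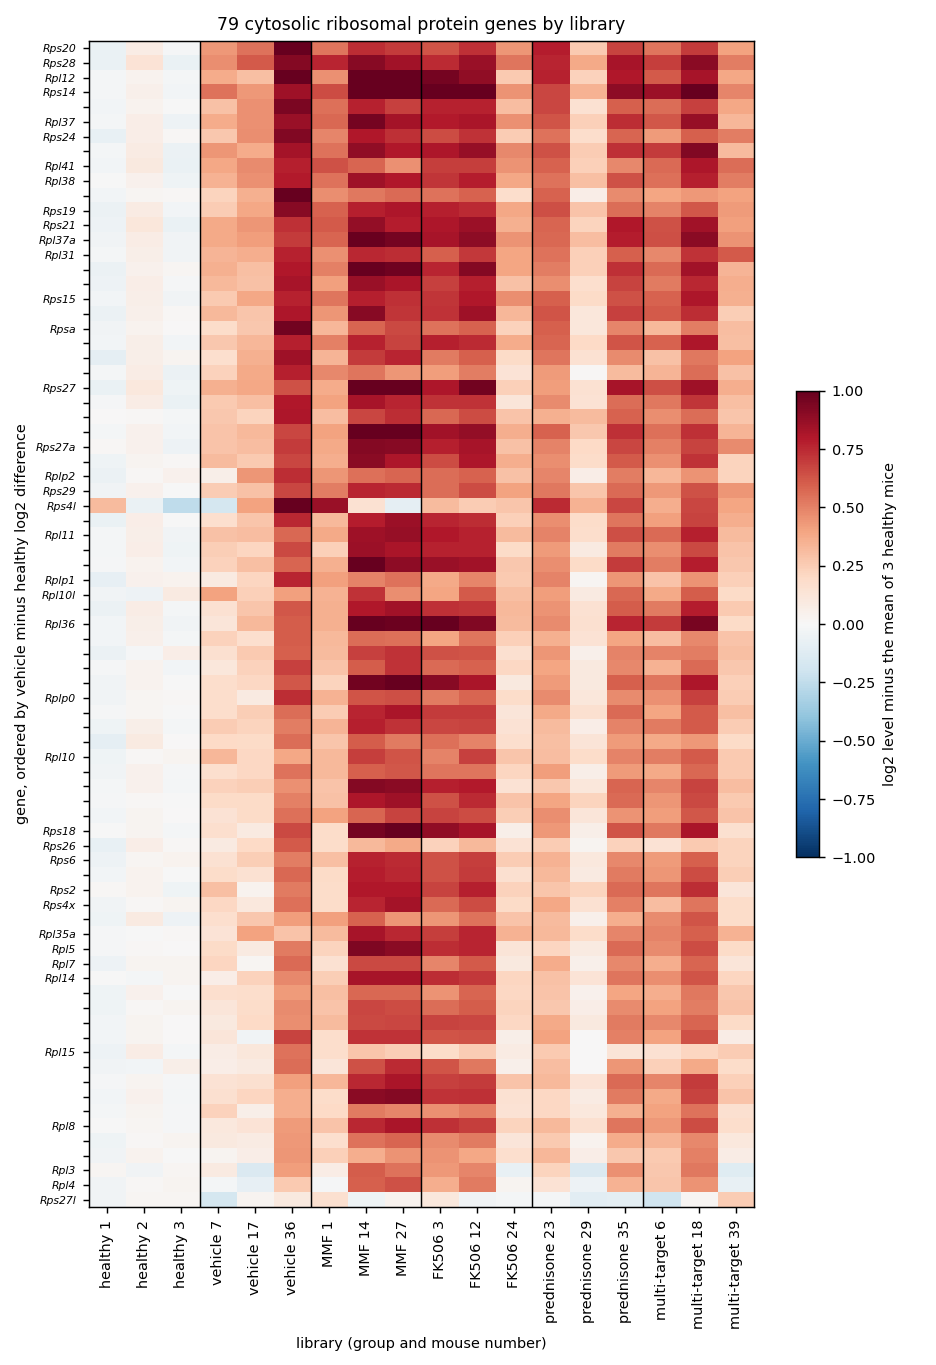
Log2 level of each of the 79 members (rows, ordered by the vehicle minus healthy difference) in each of the 18 libraries (columns), as the difference from the mean of the 3 healthy mice. Colours are capped at 1 log2 unit on either side, and rows of genes named in the text carry their symbol. Whole columns are dark or pale together, and Rps27l in the bottom row stays near 0 throughout.

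As a share of all summed linear values, members made up 1.94% ± 0.04 (SD, n = 3) in healthy mice. The shares were 2.59% ± 0.53 in vehicle, 2.93% ± 0.43 in MMF, 2.77% ± 0.43 in FK506, 2.53% ± 0.35 in prednisone and 2.64% ± 0.33 in multi-target mice. The lowest MRL/lpr share was 2.13% (prednisone mouse 29), above the highest healthy share of 1.98%. In a bulk sample such a share does not tell more cells of a type from more RNA per cell. An exact permutation test of 3 against 3 mice cannot go below p = 0.10, so the shares are given as descriptions.

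Diseased and healthy kidneys were compared first, as vehicle-treated MRL/lpr against MRL/MpJ mice. The median member stood 0.35 higher on the log2 scale (1.27-fold), against 0.09 for all genes, and 78 of 79 estimates were above 0. In the limma fit, 17 members were called higher (21.5%) and 0 lower, where 15.7% of all genes were called higher. The share of members called was thus near the background. Non-overlapping groups were more frequent, with 71 members (89.9%) above every healthy library against 32.6% of genes. The small subunit had 10 of 32 members called, the large subunit 7 of 44 and the stalk 0 of 3.

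Rps28, a small protein of the small subunit head (chromosome 17, 33819027 to 33824562 on GRCm38), had the highest estimate. Its level was 12.13, 12.33 and 12.13 in healthy mice and 12.66, 12.81 and 13.11 in vehicle mice 7, 17 and 36. It was 12.96, 13.11 and 13.04 with MMF, 12.94, 13.06 and 12.74 with FK506, 12.96, 12.57 and 13.02 with prednisone, and 12.89, 13.10 and 12.71 with the multi-target treatment. All MRL/lpr mice lay above all healthy ones, and the MRL/lpr groups overlapped each other. The vehicle minus healthy difference was 0.66 ± 0.15 (SE), limma adjusted p = 0.00567.

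Rps20, also of the small subunit head (chromosome 4, 3831334 to 3835665), stood at 12.89, 13.03 and 12.95 in healthy and 13.39, 13.50 and 13.96 in vehicle mice. It rose by 0.66 ± 0.16 (limma adjusted p = 0.00933). The third of the largest called rises was Rps14, at 13.26, 13.34 and 13.25 in healthy and 13.83, 13.72 and 14.13 in vehicle mice, with 0.61 ± 0.20 (0.0439). In both genes vehicle mouse 36 was the highest of its group, and neither group overlapped healthy.

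Among the other called members were Rpl41, whose protein is the shortest of the ribosome (0.55 ± 0.13, limma adjusted p = 0.00835), and Rpl38 (0.53, 0.0157). Rpl12, which sits at the foot of the stalk, had an estimate of 0.62 ± 0.26 and was not called (0.095). Its vehicle mice stood at 13.04, 12.97 and 13.84, and the SE draws on the spread within all 6 groups. Rps28 and Rpl41 were called under each of 13 alternative settings, and Rps20 under 12. The other 14 calls were made under 5 to 10 of them.

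The count of calls depended on single mice. Without vehicle mouse 36 it was 2 of 79 members, with a median of 0.22 and 1490 of all genes called in either direction in place of 3369. Leaving out healthy mouse 1, 2 or 3 gave 3, 5 and 3 member calls and 1744, 1824 and 1863 gene calls. Leaving out vehicle mouse 7 gave 23 member calls (29.1%), with 26.8% of genes called. Without vehicle mouse 17 the count was 16 (20.3%, with 21.9% of genes). Without that mouse and FK506 mouse 12 it was 13 (16.5%, with 19.3% of genes). Median centring left 4 member calls (5.1%), with 25.4% of genes called in place of 22.4%. Relative to the median of all genes, members were 0.25 higher as deposited, 0.25 after median centring and 0.57 after quantile normalization.

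The stalk, which recruits the elongation factors, had estimates near the member median. Rplp0 was at 14.52, 14.58 and 14.57 in healthy and 14.73, 14.65 and 15.29 in vehicle mice (0.33 ± 0.18, limma adjusted p = 0.191). Rplp1 and Rplp2 differed by 0.36 ± 0.16 (0.12) and 0.41 ± 0.15 (0.0657). Rpsa, a small subunit protein also known as a laminin receptor precursor, was at 13.99, 14.06 and 14.02 against 14.21, 14.29 and 14.99 (0.47 ± 0.19, 0.082). None of these 4 passed the test, and each had vehicle mouse 36 as its highest library.

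Rpl5 and Rpl11 bind 5S ribosomal RNA and, outside the ribosome, the p53 regulator Mdm2. They differed by 0.27 ± 0.22 (limma adjusted p = 0.394) and 0.39 ± 0.18 (0.12) between vehicle and healthy mice. In MMF mice Rpl5 was at 14.63, 15.34 and 15.31 and Rpl11 at 13.96, 14.43 and 14.45, against 14.39 to 14.42 and 13.54 to 13.64 in healthy mice. Both were called in MMF against healthy, by 0.68 ± 0.22 (0.046) and 0.70 ± 0.18 (0.0206). Rps6, the substrate of S6 kinases downstream of mTORC1, stood at 0.30 ± 0.16 (0.193) in vehicle and was called in MMF (0.61 ± 0.16, 0.027). Rps27a, made as a fusion with ubiquitin, stood at 0.43 ± 0.18 (0.0958) and was also called in MMF (0.74 ± 0.18, 0.0183).

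Rps27l differed from the rest. It encodes a paralog of Rps27 that is a known p53 target, and both coding sequences are 252 bases long. Rps27 was at 12.65, 12.82 and 12.67 in healthy, 13.07, 13.10 and 13.34 with vehicle and 13.08, 13.83 and 13.76 with MMF. Rps27l was at 11.83, 11.89 and 11.89, then 11.70, 11.90 and 11.97, then 12.03, 11.83 and 11.90 in the same groups. Rps27 thus lay above healthy in all 15 MRL/lpr libraries, and Rps27l above the highest healthy one in 6. The Rps27l difference from healthy was -0.02 ± 0.11 in vehicle (limma adjusted p = 0.934), 0.05 in MMF, 0.02 in FK506, -0.07 in prednisone and 0.02 in multi-target mice. Its correlation with the mean of the other members over the 18 libraries was 0.07, the lowest of the 79. For Rps27 one further row of the files, Rps27rt, matches its coding sequence over 252 bases at 100% identity, so reads of that pair cannot be assigned with certainty.

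Of the other paralogs, Rpl10l is the retroposed, testis-expressed copy of the X-linked Rpl10. It was at 8.39 to 8.53 in healthy and 8.53 to 9.16 in MRL/lpr mice, and Rpl10 at 14.59 to 14.66 and 14.82 to 15.33. On a scale per kilobase of coding sequence their mean levels were 9.42 and 15.63, and their disease differences 0.35 ± 0.15 (limma adjusted p = 0.097) and 0.31 ± 0.14 (0.131). Rps4x differed by 0.29 ± 0.18 (0.268). A further relative, Rps4l, is annotated as a transcribed processed pseudogene without a coding sequence. Rps4l ran at a deposited level of 6.87 to 7.44 in healthy and 6.95 to 8.11 in MRL/lpr mice. It was among the 3 members with the largest spread within groups (SD 0.35, as Rps18, then Rpl12 at 0.34), and its correlation with the other members was 0.33. Rpl3l and Rpl39l were not analysed here.

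**Figure D2:**
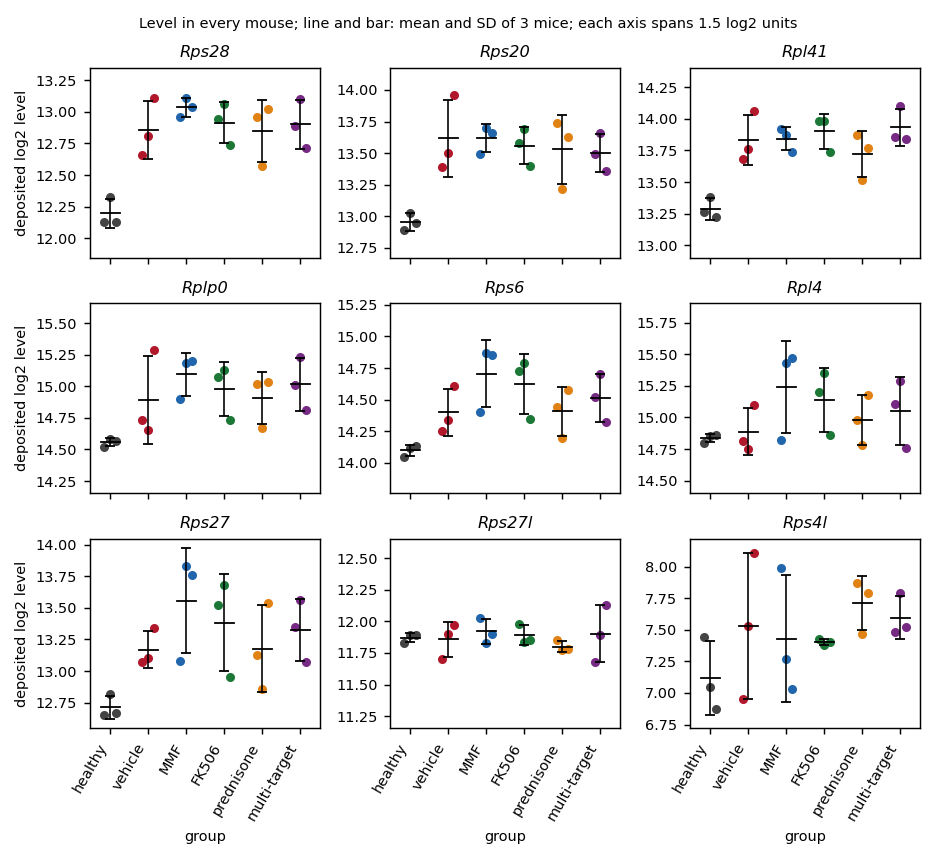
Deposited log2 level of 9 members in each mouse by group, with the mean and SD of 3 mice. Rps28, Rps20 and Rpl41 lie above healthy in every MRL/lpr mouse, Rpl4 overlaps healthy, and Rps27l stays between 11.68 and 12.13 in all 18 mice.

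Apart from Rps27l, the smallest disease differences belonged to Rpl4 and Rpl3. These long proteins, which reach into the core of the large subunit, differed by 0.05 ± 0.19 (limma adjusted p = 0.866) and 0.12 ± 0.22 (0.724) in vehicle mice. Rpl4 was at 14.80, 14.85 and 14.86 in healthy and 14.81, 14.75 and 15.10 in vehicle mice, so the groups overlapped. Over the 78 members with an annotated coding sequence (75 to 1257 bases), the disease difference had a Pearson correlation of -0.43 with log2 coding length. Members under 400 bases had a median of 0.44 (26 genes), those of 400 to 600 bases 0.34 (30 genes) and longer ones 0.29 (22 genes). Other genes of the same 3 classes had medians of 0.16, 0.16 and 0.11, a smaller step. In MMF mice the member medians by class were 0.66, 0.66 and 0.54. These points come from the same libraries and are a description across genes. RNA quality was not recorded in the labels, and its part was not tested.

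**Figure D3:**
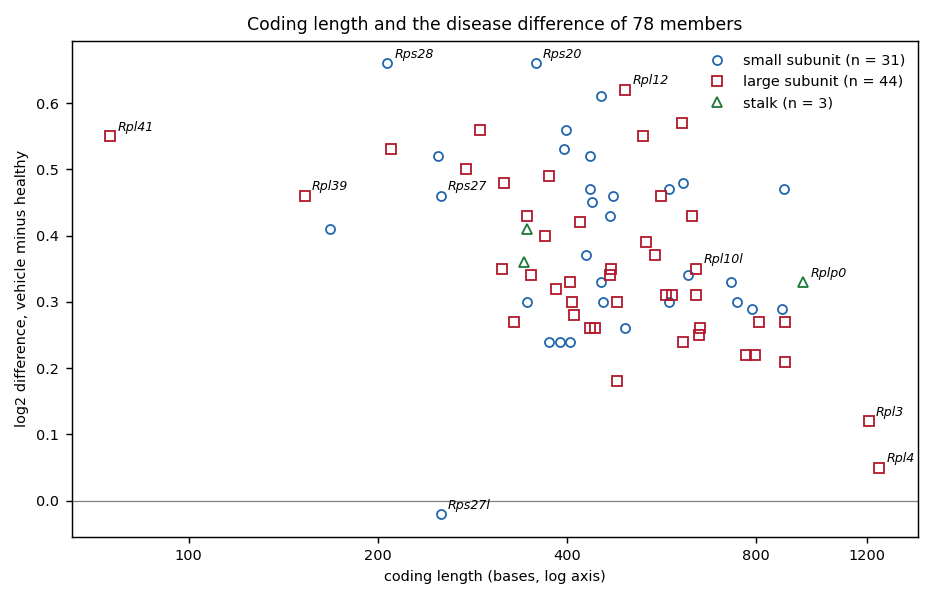
Coding length (log axis) against the vehicle minus healthy log2 difference for 78 members, by subunit. The difference falls from the short members at the left to Rpl3 and Rpl4 at the right, and Rps27l lies at 0 among the short ones.

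Levels also differed between members. By deposited level, the 3 highest were Rpl4 (15.02), Rpl10 (14.99) and Rplp0 (14.91), and the 3 lowest were Rps4l (7.47), Rpl10l (8.78) and Rpl31 (11.85). Per kilobase of coding sequence the order changed, with Rpl41 (17.49), Rps29 (15.79), Rplp1 and Rpl10 (both 15.63) at the top and Rpl10l (9.42), Rpl14 (13.24) and Rpl31 (13.26) at the bottom. Coding length leaves out untranslated ends, which weigh most in the shortest genes such as Rpl41. Rpl14 and Rpl31 each have a near-identical row of higher mean level, Rpl14-ps1 (12.77) and Rpl31-ps12 (12.26). Reads could have been split between them, so the low ranks of these 2 members are uncertain.

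Each treated group was then set against healthy mice. MMF mice had 60 members called higher (75.9%) and 0 lower in the limma fit, where 9.56% of all genes were called higher. Their median was 0.62 (1.53-fold), with all 79 estimates above 0. In FK506 mice 20 members were called (25.3%, background 5.73%) with a median of 0.54. Prednisone mice had 11 called (13.9%, background 13.4%) with a median of 0.36, and multi-target mice 12 (15.2%, background 5.33%) with a median of 0.46. No member was called lower in any of these 5 comparisons, which share the healthy libraries. Members above every healthy library numbered 76 in MMF, 75 in FK506, 67 in prednisone and 76 in multi-target mice, against 23.1%, 30.1%, 36.9% and 30.1% of all genes.

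These counts also changed when 1 mouse was left out, and shares of genes are given for both directions together. Without MMF mouse 1 the MMF count rose to 75 (94.9%, with 38.6% of genes). The MMF count was 5 without MMF mouse 14, 11 without mouse 27, and 7, 16 and 10 without healthy mouse 1, 2 or 3, while the calls over all genes went from 2395 to between 487 and 933. FK506 mouse 24 was the lowest of its group, and without it 53 members were called (67.1%, with 7.7% of genes). Without FK506 mouse 12, the one with adrenal transcripts, 0 members and 1.6% of genes were called. Without FK506 mouse 3 the count was 1, with 2.4% of genes. The prednisone count went to 23 (29.1%, with 19.7% of genes) without prednisone mouse 29 and to 1 (8.0% of genes) without mouse 35. The multi-target count went to 20 (25.3%, with 8.6% of genes) without multi-target mouse 39 and to 0 (2.1% of genes) without mouse 18. Without prednisone mouse 23 the count was 1 (6.9% of genes), and without multi-target mouse 6 it was 3 (2.1% of genes). Leaving out any 1 healthy mouse left 0 to 2 calls in FK506 and multi-target mice, with 1.5% to 2.4% of genes called. In prednisone mice it left 1 call, with 7.4% to 8.5% of genes.

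Called in all 5 groups were 10 members, namely Rps14, Rps20, Rps21, Rps28, Rps29, Rpl31, Rpl37, Rpl37a, Rpl38 and Rpl41. Another 3 were called in 4 groups, among them Rps15 and Rps19. At the other end, 18 were called in none, among them Rplp0, Rplp1, Rpsa, Rps2, Rpl3, Rpl4, Rpl7 and Rps27l. The shares of all genes called higher in all 5 groups, in 4 or in none were not counted. The first cannot exceed 5.33%, the share called higher in multi-target mice. Calls in the 5 groups are not independent, since all use the same healthy libraries. Rps14 had the highest estimate in MMF (0.96 ± 0.20, limma adjusted p = 0.00998), FK506 (0.86, 0.0219) and multi-target mice (0.80, 0.0323). Rps28 led in prednisone mice (0.65, 0.00869).

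**Figure D4:**
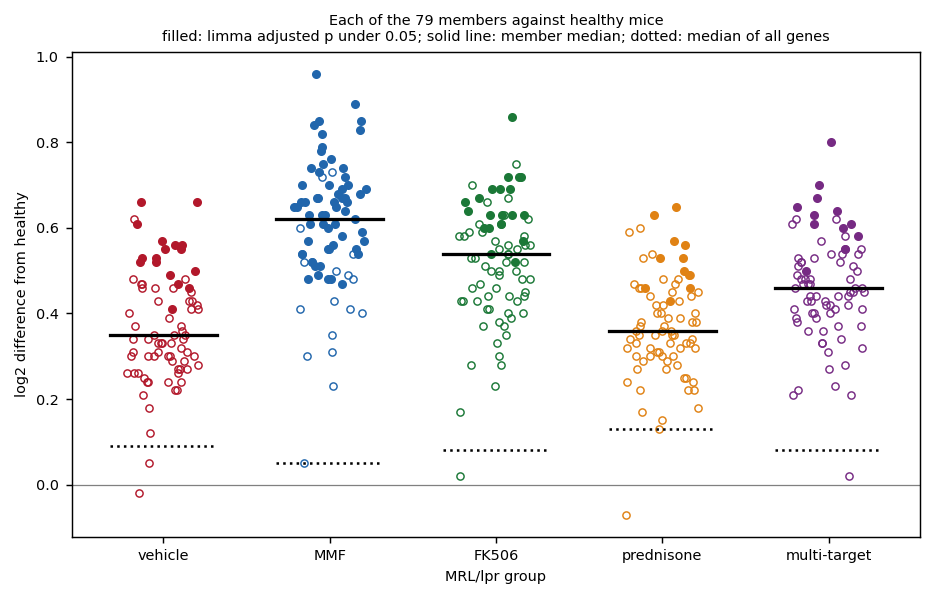
Log2 difference from healthy for each of the 79 members in the 5 MRL/lpr groups. Filled points passed the limma test, the solid line is the member median (0.35, 0.62, 0.54, 0.36 and 0.46 from left to right) and the dotted line the median of all genes.

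Drug effects within diseased mice were asked by setting each drug against vehicle, and no member was called in any of the 4 comparisons. With MMF, 74 of 79 estimates were above 0 and the median was 0.24, against -0.05 for all genes. In that comparison 1.58% of all genes were called in either direction. An unadjusted p lay under the threshold for 5 of 79 members and 4491 of 15035 genes. Among the members with the smallest p were Rpl35a (0.36 ± 0.14, limma adjusted p = 0.122) and Rpl8 (0.39 ± 0.18, 0.152). Rpl35a stood at 13.09, 13.35 and 13.24 in vehicle mice and at 13.27, 13.77 and 13.71 with MMF, so MMF mouse 1 lay within the vehicle range. Without that mouse 20 members (25.3%) and 36.8% of all genes were called, and the member median was 0.36. Array weights, whose estimate stopped before convergence here and below, called 62 members (78.5%) and 44.9% of genes.

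With FK506 the median was 0.16 and 70 estimates were above 0, with 0% of genes called. Unadjusted, 1 of 79 members and 2987 of 15035 genes were under the threshold. Rpl35a (0.33 ± 0.14, limma adjusted p = 0.224) and Rpl8 (0.32, 0.314) were again among those with the smallest p, and both comparisons share the vehicle mice. Without vehicle mouse 17 and FK506 mouse 12 the median was 0.02. Array weights called 57 members (72.2%) and 15.5% of genes.

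With prednisone the median was 0.01, with 46 of 79 estimates above 0 and a range of -0.21 to 0.18. Again 0% of all genes were called, and 0 members and 474 of 15035 genes had an unadjusted p under the threshold. Among the smallest in p were Rps26 (-0.13 ± 0.12, limma adjusted p = 0.943) and Rpl15 (-0.11 ± 0.12, 0.943). Without vehicle mouse 36 the median was 0.15.

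For the multi-target treatment the median was 0.10, with 65 estimates above 0 and 0% of genes called. Unadjusted, 0 members and 2341 of 15035 genes were under the threshold. Rpl35a (0.21 ± 0.14, limma adjusted p = 0.486) and Rpl36 (0.27 ± 0.24, 0.597) were among those with the smallest p. Array weights called 7 members (8.9%) and 18.5% of genes, and without vehicle mouse 36 the median was 0.23.

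The multi-target arm was also set against its single-drug neighbours. Members lay at a median of -0.15 from MMF mice (2 of 79 above 0), -0.07 from FK506 mice and 0.09 from prednisone mice. No member was called by limma in any of the 3, where 0%, 0% and 0% of genes were called. An unadjusted p lay under the threshold for 0 members, and for 1126, 61 and 503 of 15035 genes. Array weights called 47 members lower against MMF (59.5%, with 46.1% of genes called in either direction) and 31 lower against FK506 (39.2%, with 13.6% of genes).

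Within groups the members varied together. The first component of their deviations from the group means carried 86.2% of the variance, and the median correlation between pairs of members was 0.90. The typical SD of a member was 0.04 in healthy mice and 0.20 to 0.24 in the MRL/lpr groups, where the typical gene had 0.08 and 0.16 to 0.27. Libraries with high members were spread over all 5 MRL/lpr groups.

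Cell type markers also differed between these libraries, and not all in the order of the members. Macrophage and myeloid markers (14 of 15 higher in vehicle mice, median 3.48) averaged 2.87, 3.29 and 3.88 in the vehicle libraries, relative to healthy. They averaged 2.43, 1.42 and 0.62 in MMF mice 1, 14 and 27, and 1.65, 2.26 and 2.21 in FK506 mice 3, 12 and 24. In prednisone mice 23, 29 and 35 they averaged 3.74, 2.07 and 2.29, and in multi-target mice 6, 18 and 39 2.02, 1.56 and 2.26. Their summed level was 0.013% to 0.0156% of all values in healthy, 0.0863% to 0.203% under vehicle and 0.0178% to 0.0681% under MMF. T cell markers (11 of 12 higher) averaged 1.26, 2.02 and 2.29 in the vehicle group and 1.23, 0.48 and 0.41 under MMF. MMF mice 14 and 27 thus had the lowest macrophage marker means of the 15 MRL/lpr libraries and the highest member means, 0.74 and 0.72. Plasma cell markers (5 of 6 higher) averaged 1.30, 1.49 and 2.66 under vehicle and 0.98, 1.61 and 1.77 under MMF. B cell markers (3 of 5 higher) averaged 0.93, 1.26 and 1.82 under vehicle and 0.91, 1.05 and 1.09 under MMF. By these means, each MRL/lpr group had the same lowest mouse in both lists as in members. By summed share, the lowest plasma cell value under vehicle was in mouse 17 (0.0299%, against 0.0339% in mouse 7). Proximal tubule markers (5 of 15 lower, median -1.12) were lowest in vehicle mouse 36 (-2.12). In MMF mouse 1, FK506 mouse 24, prednisone mouse 29 and multi-target mouse 39 they stood at -0.58, -0.32, -0.56 and -0.50, against -0.91 to -1.33 in the other mice of those groups. Those 4 mice also had the lowest members of their groups. As a summed share of all values, tubule markers gave the same order in FK506, prednisone and multi-target mice (2.53%, 2.23% and 2.16% against 1.34% to 1.97%) but not with MMF, where mouse 1 had the lowest share (2.14% against 2.49% and 2.31%). In the vehicle group the order differed, with mouse 17 highest in tubule markers (-0.66) and mouse 7 lowest in members. The parts of tubule loss and of leukocyte content in the member levels were not tested.

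**Figure D5:**
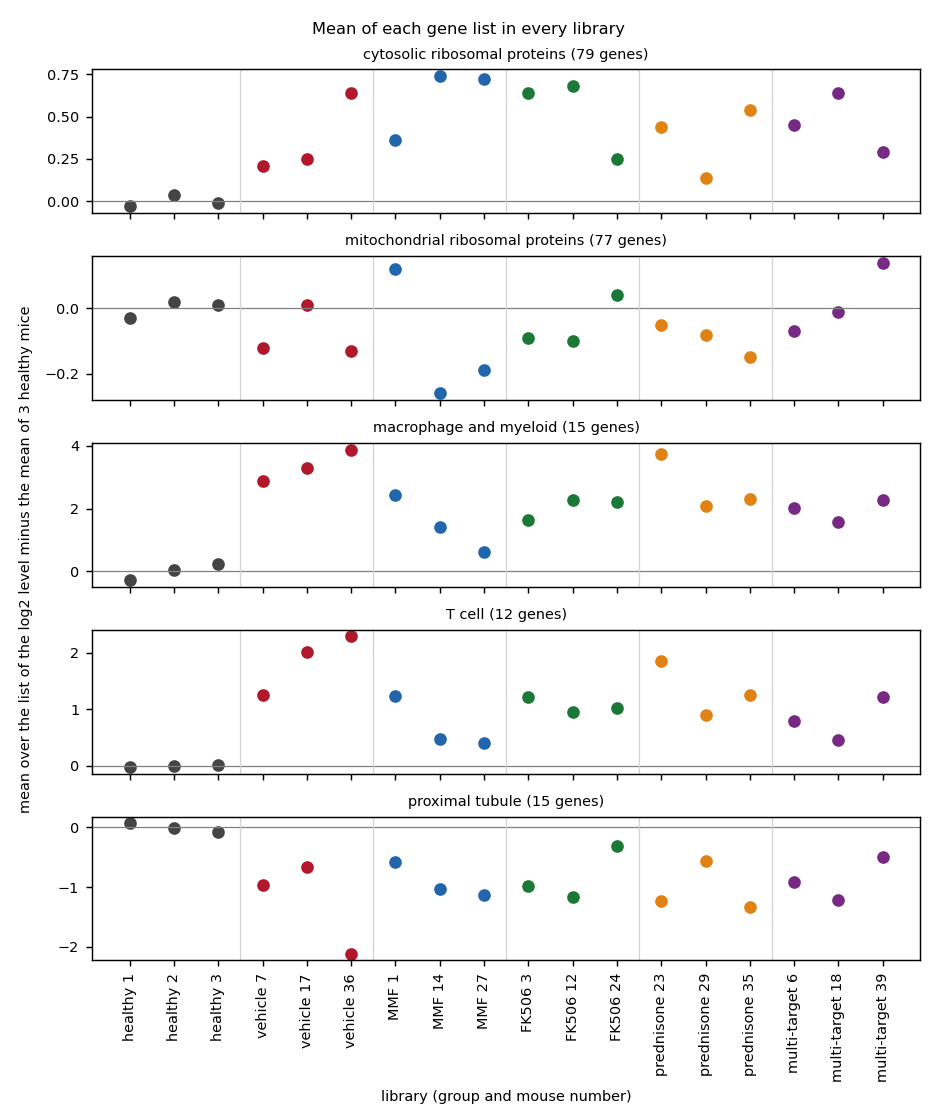
Mean log2 difference from healthy over 5 gene lists (panels) in each library. Members are above 0 in all MRL/lpr libraries, mitochondrial ribosomal proteins stay within -0.26 to 0.14, and leukocyte and proximal tubule markers move in opposite directions from healthy.

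Some ribosomal protein genes fall outside the symbol rule. Of 7 measured, 2 were called higher in vehicle mice (median 0.25), namely Rpl22l1, the paralog of Rpl22 (0.80 ± 0.17, limma adjusted p = 0.0051), and Rpl36al (0.37 ± 0.07, 0.00314). Rpl22l1 was at 9.64, 9.75 and 9.54 in healthy and at 10.27, 10.20 and 10.87 in vehicle mice, and in all 15 MRL/lpr libraries it exceeded the highest healthy one. Fau, made as a fusion with a ubiquitin-like protein, and Rps3a1 differed by 0.31 (0.248) and 0.25 (0.301). Gnb2l1, the gene of the ribosomal scaffold Rack1, differed by 0.20 (0.474). Rpl7l1, a nucleolar relative of Rpl7, differed by 0.03 (0.856) and lay above healthy in 2 of 15 MRL/lpr libraries.

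Mitochondrial ribosomal proteins, which build the separate ribosome of the organelle, had medians from -0.14 to 0.01 against healthy in the MRL/lpr groups. Of 77 measured, 1 was called higher (Mrpl23, 0.35, limma adjusted p = 0.0195) and 5 lower in vehicle mice, among them Mrps35 (-0.48, 0.014) and Mrps5 (-0.43, 0.0199), with a median of -0.08. Over all genes 6.76% were called lower in that comparison, so the 5 were near the background. In MMF mice 4 were higher and 5 lower than healthy, where 6.37% of genes were lower, with a median of -0.12. FK506 and multi-target mice each had 3 higher and 0 lower, where 5.73% and 5.33% of genes were higher, with medians of -0.05 and 0.01. Prednisone mice had 2 higher and 4 lower, where 13.4% of genes were higher and 495 of 15035 lower, with a median of -0.14. The difference between the 2 families was not tested.

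Elongation factors and other TOP transcripts, which share the translational control of the members, had a median of 0.09 in vehicle mice. Against healthy it was 0.31 in MMF, 0.25 in FK506, 0.09 in prednisone and 0.18 in multi-target mice. All genes had 0.05, 0.08, 0.13 and 0.08 in those groups. The counts of this and the following lists are for vehicle mice and are read against 15.7% of all genes called higher and 6.76% lower. Of 23, 2 were higher, Gas5 (0.97 ± 0.20, limma adjusted p = 0.004), a host gene of small nucleolar RNAs, and Vim (2.16, 0.00496), an intermediate filament gene of mesenchymal cells and leukocytes. Eif2s3x was lower (-0.39, 0.00864). Translation initiation factors had 4 of 28 higher and 0 lower, led by Eif1a (0.71, 0.00896), Eif6 (0.80, 0.0293), which keeps free large subunits from joining, and Eif1 (0.37, 0.0355). The median of that list was 0.04.

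Ribosome assembly genes had 5 of 75 higher and 2 lower, with a median of 0.15. Nop56 (0.57, limma adjusted p = 0.00394) and Gar1 (0.49, 0.0158) belong to the snoRNP particles that modify ribosomal RNA, and Gnl3l was lower (-0.42, 0.00184). RNA polymerase I and its factors, which transcribe ribosomal RNA, had 0 of 15 called (median 0.13). The list of transcription factors named for ribosomal protein promoters had 3 of 13 higher, Max (0.69, 0.00195), Tbpl1 (0.44, 0.0308) and Mycl (1.41, 0.0386).

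In the mTORC1 list 1 of 31 was higher, Eif4ebp1 (1.18, limma adjusted p = 0.0126), and 1 lower, Rptor (-0.24, 0.0496). Integrated stress response genes had 5 of 14 higher and 1 lower, with Atf4 (1.08, 0.00033) and Atf5 (1.06, 0.00329) up and Shmt2 (-0.96, 0.00933) down. The p53 list had 2 of 16 higher, Fas (1.34, 3.81e-05) and Bbc3 (1.36, 0.0296), and its median was 0.58. Fas is also the gene that is defective in MRL/lpr mice, so its level is tied to the genotype itself. Sesn2, which belongs to the last 3 lists and restrains mTORC1, was the one gene of them called with MMF against vehicle (1.27 ± 0.23, 0.0429). Among transcripts read as RNA quality, 4 of 13 were measured and Neat1 was higher (0.94, 0.015), and of 14 immediate early and heat shock genes Atf3 (3.15, 0.0113) and Nr4a1 (1.63, 0.0463) were.

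By likeness, the genes outside the set that followed the member mean most closely over the 18 libraries were Gm6525 (Pearson 0.988), Gm13826 (0.986), Gm15772 (0.983), Gm12191 (0.981) and 1700073E17Rik (0.978). Of these, 4 have transcripts that align to a member's coding sequence. Gm15772 and Gm12191, annotated as processed pseudogenes, match Rpl26 over 435 bases at 99.5% and Rpl30 over 345 bases at 99.7%. Gm6525 matches Rpl36a over 318 bases at 95.6%, and 1700073E17Rik matches Rpl7 over 722 bases at 88.5%. No source used here names the aligner or its handling of multiple matches, so these values may hold reads of the members. Farthest below were Phkb (-0.958), a phosphorylase kinase subunit, and Lef1 (-0.949), a transcription factor of the Wnt pathway. Phkb was at 11.69 to 11.76 in healthy and 10.58 to 11.49 in MRL/lpr mice.

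In all, 15 rows of the files matched the coding sequence of 14 members at 95% identity or more over at least 100 bases. Of the 17 disease calls, 3 fell on such members, Rpl31, Rps19 and Rps24. Over the 65 members without a match, vehicle mice had 14 calls (median 0.35), where 15.7% of all genes were called higher. MMF mice had 49 (median 0.61), where 9.56% of all genes were called higher. Values of members with a match are uncertain, since reads could have been split.

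Promoter sequences are shown because the members moved together, with the starts of 3 members called under at least 10 of the 13 settings (Rps28, Rpl38, Rpl41), of Rps6, of the unlike paralogs Rps27 and Rps27l, and of Rpl4, which had the second smallest difference in size. RefSeq promoters on GRCm38.p6 matched 58 of 79 members. Each run below covers 50 bases before and 20 after the annotated start on the gene's strand, with CTCTTT and CGGAAG (the core of an ETS family site) in capitals on either strand. These words cannot overlap each other. For Rps27l, 2 starts are annotated: the first is shown, and the run at the second (chr9:66946363-66946432) holds neither word.
Rps28, chr17:33824543-33824612, minus strand: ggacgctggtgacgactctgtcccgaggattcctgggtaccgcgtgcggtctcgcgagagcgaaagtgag
Rpl38, chr11:114668530-114668599, plus strand: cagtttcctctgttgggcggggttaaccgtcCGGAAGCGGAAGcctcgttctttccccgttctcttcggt
Rpl41, chr10:128549149-128549218, minus strand: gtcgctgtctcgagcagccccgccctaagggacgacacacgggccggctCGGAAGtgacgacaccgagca
Rps6, chr4:86857348-86857417, minus strand: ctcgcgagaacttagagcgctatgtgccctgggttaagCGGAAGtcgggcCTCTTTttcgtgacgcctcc
Rps27, chr3:90213629-90213698, minus strand: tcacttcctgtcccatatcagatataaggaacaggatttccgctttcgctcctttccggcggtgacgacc
Rps27l, chr9:66946036-66946105, plus strand: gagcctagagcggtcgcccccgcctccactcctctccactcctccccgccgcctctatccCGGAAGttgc
Rpl4, chr9:64173337-64173406, plus strand: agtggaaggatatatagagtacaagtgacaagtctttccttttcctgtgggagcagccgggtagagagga

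Over the whole RefSeq window, from 250 bases before to 50 after the start, on both strands, CGGAAG was found in 40 of 58 members (69.0%) and in 31.0% of 11143 other measured genes. CTCTTT was found in 27 (46.6%) and in 2562 of those 11143, and within 50 bases of the start in 19 (32.8%) and 7.0%. TATAAA was found in 6 members (10.3%) and 9.6% of other genes. These words were chosen after the values were seen, and a match is a description of the sequence. Rps28, Rps27 and Rpl4 hold neither capitalised word in the run shown, and their differences from healthy span the range from the highest to nearly the lowest.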

How the data were processed

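Kidney cortex of 18 mice was profiled, 3 in each of 6 groups. The authors deposited log2 expression values per gene, and the submitters' processing notes name limma and mm10, without versions. No source used here gives the aligner, counting or strand setting. Per the labels, total RNA was extracted on columns and libraries were built with a TruSeq kit. Back on the linear scale, 69 of 79 members came out as whole reads (tolerance 0.001 reads) once each library was divided by its own constant, in at least 17 libraries.

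The values were fitted as deposited, without filter or pseudocount, by limma 3.58.1 (R 4.3.3) with group means over all 18 libraries (12 residual degrees of freedom, trended prior). The 12 comparisons were each adjusted by Benjamini-Hochberg over 15035 genes at 0.05. A called gene passed that threshold. The fit was tested on simulated data. The members and lists were chosen with earlier results of these data known. Named are the 3 largest called changes or, with none called, the 3 smallest p, members fixed by role or by level and spread, the likeness genes, and up to 3 called genes per list. Results of some genes that the rule names are not reported here. Other members named for their coding length or call pattern were chosen after their values were seen. Coding lengths come from GENCODE M21, and near-identical rows from blastn 2.17.0. Marker lists without a value in the text did not enter a result. Nothing says that libraries of a group came from separate cohorts, so p-values measure the spread between these mice.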

Additional observations from a re-analysis of the deposited data

How the results depend on the processing

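All counts below are of members called, with the share of all genes called in either direction in brackets. Vehicle minus healthy, with 17 (22.4%), gave 11 (18.6%) with only the 2 groups fitted and 26 (21.2%) after quantile normalization. It gave 4 (25.4%) after median centring, 34 (36.7%) with array weights, and 2 to 23 (9.9% to 26.8%) when 1 library was left out. MMF minus healthy, with 60 (15.9%), ranged from 5 to 75 (3.2% to 38.6%) with 1 library left out. FK506 minus healthy, with 20 (7.3%), gave 63 (24.4%) with only 2 groups, 7 (4.7%) after quantile normalization and 77 (56.9%) with array weights. It gave 0 (1.4%) without vehicle mouse 17 and FK506 mouse 12, and 0 to 53 (1.6% to 7.7%) with 1 library left out. Prednisone minus healthy, with 11 (16.7%), gave 28 (27.3%) with 2 groups, 6 (12.7%) after quantile normalization and 1 (16.6%) after median centring. It gave 60 (37.9%) with array weights and 1 to 23 (6.9% to 19.7%) with 1 library left out. Multi-target minus healthy, with 12 (7.0%), gave 62 (21.5%), 6 (4.5%), 7 (6.3%) and 79 (66.0%) in that order, and 0 to 20 (1.5% to 8.6%). Against vehicle, MMF ranged from 0 to 20 (0.0% to 36.8%) with 1 library left out. In the drug comparisons against vehicle, array weights called 62 members (44.9%) for MMF, 57 (15.5%) for FK506 and 7 (18.5%) for multi-target, where limma called 0. Array weights called 47 (46.1%) and 31 (13.6%) for multi-target against MMF and FK506. The array weights estimate stopped before convergence. Why the counts moved was not tested, and neither was the part of the fewer degrees of freedom that fewer libraries leave.

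Estimates moved less than counts. The share difference from vehicle reversed to -0.141 points for FK506 and -0.117 for multi-target without the 2 libraries with other-tissue transcripts, and to -0.10 for multi-target after quantile normalization. It ranged from -0.118 to 0.357 for multi-target and -0.235 to 0.238 for prednisone with 1 library left out. Rpl3 reversed to -0.07 after median centring and -0.03 with array weights or without vehicle mouse 36, and Rpl4 to -0.14, -0.04 and -0.05. Rps27l reversed to 0.06 without vehicle mouse 7, and Rps26 and Rpl15 to 0.03 and 0.04 for prednisone without vehicle mouse 36. At the other end, leaving out 1 library gave at most 0.25 for Rpl3 and 0.12 for Rpl4 and at least -0.07, -0.23 and -0.20 for Rps27l, Rps26 and Rpl15. Of 45 share differences recomputed, 8 reversed.

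No paired analysis was possible because the replicate numbers name mice and no groups share 2 of them. Mitochondrially encoded genes were not among those measured here, so the share without them was not run. Alternatives on near-identical rows, on separated members and on shares without the 2 libraries were chosen after seeing the data.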
